A study of Mus musculus with 12 samples.

Results

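The genes described here encode the subunits, assembly chaperones and regulators of the proteasome. They were chosen by symbol, as every gene whose name begins with Psma, Psmb, Psmc, Psmd, Psme, Psmf or Psmg followed by a digit. This gave 50 of the 15767 genes in the deposited tables, of which 49 passed the filter on low counts. Psmb11, the thymoproteasome subunit, did not. Psmc3ip and Psme3ip1 meet the rule but encode proteins named for binding a proteasome protein, and are counted as members without being subunits. Psma8, the testis form of an alpha subunit, has no row in the tables used here.

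RNA was sequenced from Neuro-2a cells, a line of wild-type genotype derived from a mouse neuroblastoma and often used as a model of neurons. Each of 3 groups had 4 libraries, numbered 1 to 4. The control group received the reagent labelled miR-Control, the mimic group a miR-155 mimic, which imitates the mature microRNA, and the inhibitor group a miR-155 inhibitor, which is designed to bind it. Transfection was done in medium lacking serum and antibiotics in all groups, complete medium was restored at 4 h, and culture lasted until day 2. Whether the 4 libraries within a group are separate cultures, and what a replicate number stands for, is not stated in the labels. The p-values therefore measure the spread between these libraries, which may be technical. MiR-155 itself was not measured in the values used here.

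The proteasome is the protease that degrades proteins tagged with ubiquitin. Its 20S core is a barrel of stacked rings: alpha subunits form the outer rings and gate the entrance, and beta subunits form the inner rings, where Psmb5, Psmb6 and Psmb7 carry the proteolytic sites. The 19S cap has a base, in which 6 ATPases unfold the substrate, and a lid, which removes the ubiquitin chain. Cells of the immune system, or cells exposed to interferon, exchange the catalytic subunits for the immunoproteasome subunits Psmb8, Psmb9 and Psmb10, which changes the peptides offered on MHC class I. When proteasome activity drops, the transcription factor NFE2L1 is released from the endoplasmic reticulum and raises the proteasome genes together through antioxidant response elements.

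Total counts ran from 60695388 to 74200532 per library. Of 12 markers of Neuro-2a, which include the sympathetic neuron factors Phox2a, Hand2 and Gata3, all had a row and 11 passed the filter on low counts. Markers of other cells were near 0: summed over the 4 or 5 of 6 listed genes that had a row, those of fibroblasts came to 0.807 to 1.73 TPM, those of glia to 3.43 to 5.18 TPM and those of immune and endothelial cells to 1.79 to 3.04 TPM. TPM, a library-scaled abundance, is a level per transcript length, and CPM (counts scaled to a common library size) is used to compare a gene between libraries. The library control 2 stood apart from the others, and the 3 libraries numbered 4 stood apart from those numbered 1 to 3. Both are described with the members they touch.

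No proteasome gene was called in a treatment comparison. edgeR's quasi-likelihood test, with Benjamini-Hochberg adjustment over 13014 genes and a threshold of 0.05, called 0 of 49 members for mimic against control, for inhibitor against control and for mimic against inhibitor. It called 0% of all genes in each. At an unadjusted p under 0.05 the counts were 0, 1 and 0 members, beside 0.546%, 0.515% and 0.592% of all genes. All 49 members had estimates within 0.25 of 0 on the log2 scale in each comparison. Estimates for mimic against control ran from -0.19 to 0.11. The median member estimate was -0.0181 for mimic against control, 0.00983 for inhibitor against control and -0.0252 for mimic against inhibitor, beside -0.0068, -0.00993 and 0.00243 over all genes. Of the 49 members, 30, 21 and 38 were below 0, beside 6951, 7286 and 6326 of the 13014 genes. The count for mimic against inhibitor stayed at 38 with DESeq2. It fell to 25 without the library inhibitor 1 and to 22 with limma on log2(TPM + 1). The treatment comparisons share libraries, and the sign of the member median was not stable: without the library control 2, it was 0.0218 for mimic against control. The median standard error of a member was 0.08, so a small change of a member cannot be told from the spread. This fit had no term for the replicate number, so its spread, intervals and p-values include the differences between numbers. A fit with the number as a block is given with the processing. In these bulk samples a change in the share of a kind of cell and a change in RNA per cell cannot be told apart.

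**Figure D1:**
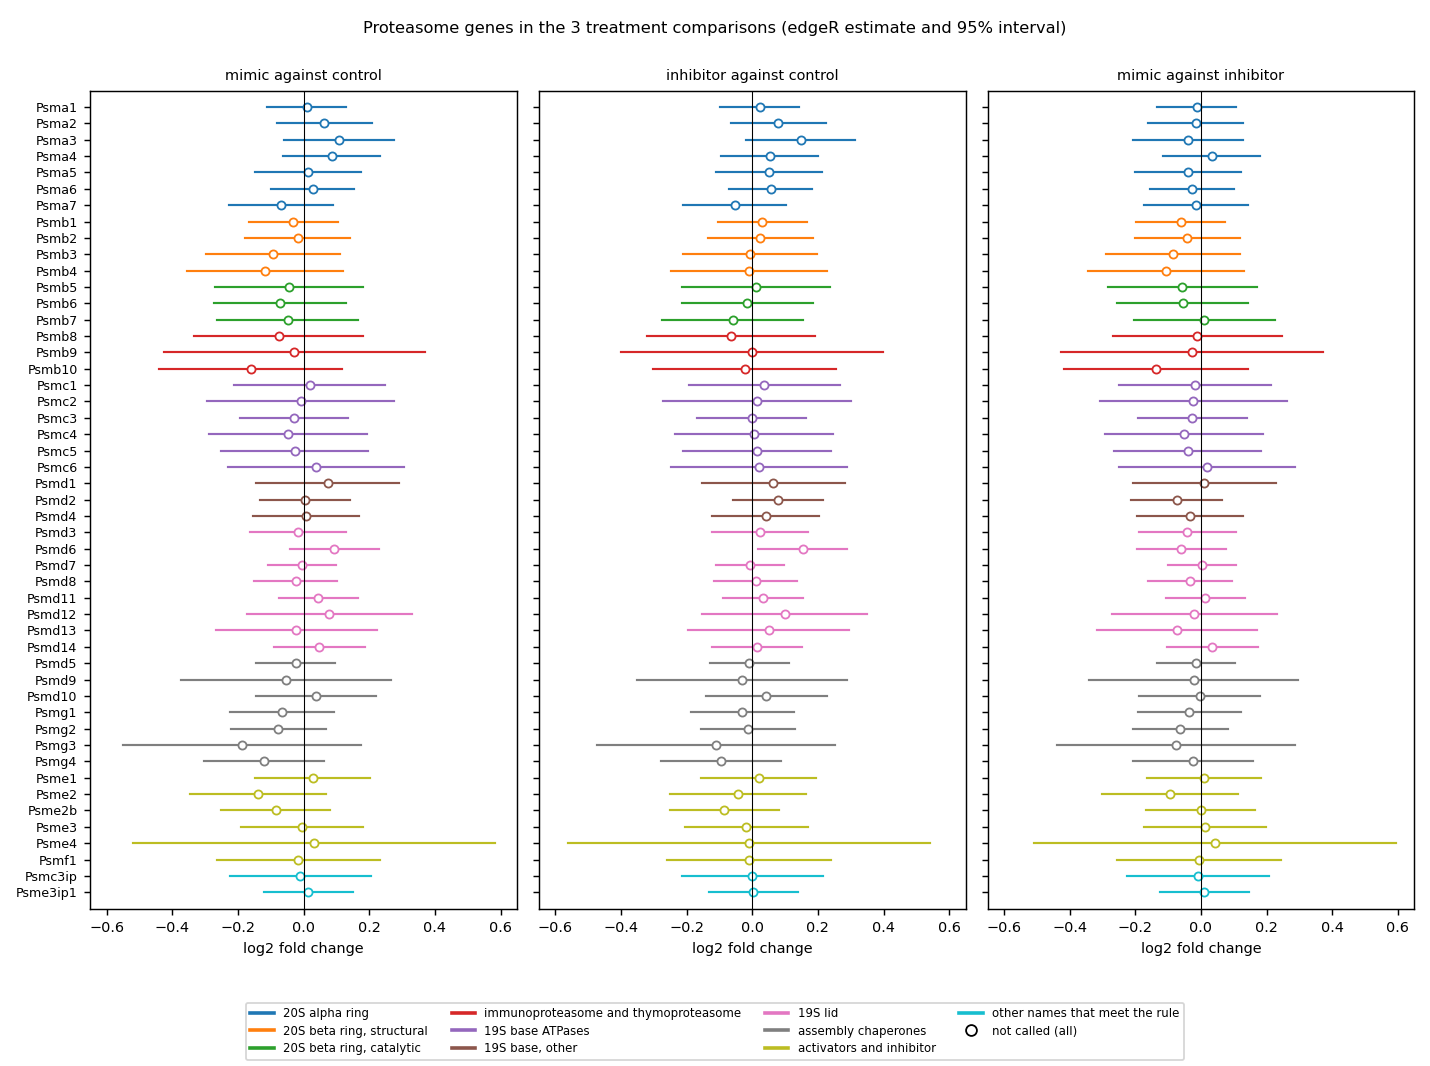
Log2 fold change (x axis) of the 49 tested proteasome genes (y axis, coloured by role) in the 3 treatment comparisons, with 95% intervals from edgeR, n = 4 libraries a group. Every estimate lies within 0.25 of 0, none was called, and 1 interval leaves out 0, that of Psmd6 for inhibitor against control.

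Psmd6, a scaffold subunit of the lid, was the member with the smallest unadjusted p. It measured 84.1, 86.2, 81.0 and 86.0 CPM in controls 1 to 4 and 92.4, 93.5, 91.0 and 98.5 CPM in inhibitor libraries 1 to 4. In the mimic libraries it measured 82.0, 93.5, 89.8 and 94.6 CPM. The inhibitor and control values did not overlap, while the mimic values ran from the control range into the inhibitor range. The log2 difference of inhibitor against control was 0.15 (SE 0.06, 95% interval 0.02 to 0.29), with an unadjusted edgeR p of 0.0296 and an adjusted p of 1. Non-overlap of this kind was found in 0.645% of all genes for inhibitor against control, and in 0 members for mimic against control (0.684% of all genes) and for mimic against inhibitor (0.861%). For mimic against control, Psmd6 differed by 0.09 (SE 0.06).

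The other members of smallest p lay closer to the spread. Psma3, an alpha ring subunit, measured 44.8 CPM at most in control libraries and 43.7 CPM at least in inhibitor libraries, a log2 difference of 0.15 (SE 0.08). Psmd2, a large scaffold of the base, was 0.08 (SE 0.06) higher in inhibitor than in control on the log2 scale, and mimic against inhibitor gave -0.07. Psme2, a subunit of the PA28 cap that opens the core without ubiquitin, gave -0.14 (SE 0.10) for mimic against control and -0.10 for mimic against inhibitor. Psmg4, an assembly chaperone of the core, gave -0.12 (SE 0.08) for mimic against control. Psmb10 gave -0.14 (SE 0.13) for mimic against inhibitor. None of these passed the test.

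A microRNA acts on a message mainly by pairing of its seed, bases 2 to 8, with the 3′ UTR. The mature sequence that the mimic is named for, miR-155-5p (RefSeq, GRCm38.p6 chr16:84714143-84714165, plus strand), is shown with its seed in capitals, because the sites in the members are read from it.
miR-155-5p: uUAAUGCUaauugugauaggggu
A match to the seed followed by an A (AGCATTAA) is called an 8mer, the seed match alone (AGCATTA) a 7mer-m8, and a match to bases 2 to 7 followed by an A (GCATTAA) a 7mer-A1. In the longest annotated 3′ UTR of each gene (GENCODE M21, GRCm38), 5 of 49 members had a site (10.204%), beside 13.166% of 12844 tested genes. The members' 3′ UTRs were short, with a median of 294 bases beside 1131 for all genes tested. The 5 sites are printed with 11 bases on each side and the site in capitals, since they show which members could pair with the seed.
Psmb1, 8mer, chr17:15476569-15476576, minus strand: ctcctacatcaAGCATTAAtctggaaaaca
Psmf1, 8mer, chr2:151717170-151717177, minus strand: ttatgcaaggaAGCATTAAaggaacagtgg
Psme4, 7mer-m8, chr11:30880081-30880087, plus strand: ctgttgagtttAGCATTAgtagggccatg
Psmd5, 7mer-m8, chr2:34851393-34851399, minus strand: tgcttttcagtAGCATTAtatatgtgtta
Psma3, 7mer-A1, chr12:70996312-70996318, plus strand: ctgggaagtatGCATTAAaaacattcctg

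None of the 5 members with a site was called in mimic against control. Psmb1, a structural beta subunit with an 8mer, measured 343, 395, 367 and 332 CPM in controls 1 to 4 and 337, 343, 364 and 360 CPM in mimic libraries 1 to 4. The ranges overlapped and the log2 difference was -0.03 (95% interval -0.17 to 0.10). Psmf1, an inhibitor protein of the core and the other 8mer gene, gave -0.02 (95% interval -0.27 to 0.23). Psmd5, a chaperone of the 19S base, gave -0.02 (95% interval -0.14 to 0.10), and Psme4, the PA200 cap, gave 0.03 with a wide interval of -0.52 to 0.58, which narrowed to -0.23 to 0.38 around 0.08 with the replicate number as a block. Psma3 gave 0.11 (95% interval -0.06 to 0.27). A site is a sequence match, and these values do not say whether it is used.

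Proteasome genes were expressed at high levels. The median over the 49 tested members was 163 TPM, beside 19.5 TPM over all genes tested, and 47 of the 49 lay above that all-gene median. Together the 50 members made up 1.10% of all TPM. The subunits of a particle are built in equal numbers, but their messages were not equal. In each library the median of the 14 constitutive 20S subunits lay between 329 and 378 TPM, and 12 of the 14 had means within 2-fold of that level. The median of the 17 subunits of the 19S cap lay between 164 and 183 TPM, and 10 of the 17 were within 2-fold of it. The length that the authors used for each gene shapes such comparisons between genes, as given with the limits. Per kilobase of the longest coding transcript, more 20S and fewer 19S subunits left the 2-fold range. In the 20S core these were Psma2 (0.226 of the median), Psma3 (0.0923), Psma5 (0.334) and Psmb5 (0.328). In the 19S cap they were Psmc5 (2.52), Psmc6 (0.395) and Psmd11 (0.335). Which particle looked more even thus depended on the length used.

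In the alpha ring, Psma6 was the highest at 508 TPM (SD 24.0, n = 12) and Psma3 the lowest at 30.5 TPM (SD 2.37, n = 12). Psma3 measured 26.5 to 34.7 TPM in the 12 libraries, below every other 20S subunit in each. In the beta ring, Psmb4, a structural subunit, was the highest at 604 TPM and Psmb1 the lowest structural subunit at 324 TPM. Among the catalytic subunits, Psmb7, which carries the trypsin-like activity, measured 411 TPM, Psmb6, the caspase-like subunit, 372 TPM, and Psmb5, the chymotrypsin-like subunit targeted by bortezomib, 214 TPM. Psmb6 and Psmb7 overlapped between libraries, at 344 to 419 and 340 to 473 TPM, while Psmb5 stayed below both at 184 to 242 TPM.

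In the 19S cap, the ATPase Psmc5 was the highest subunit at 815 TPM and the lid subunit Psmd11 the lowest at 37.4 TPM. The ATPases, which assemble as a single ring of 6 different subunits, spanned 11.8-fold, from Psmc6 at 69.0 TPM to Psmc5. In the lid, Psmd7 was the highest at 648 TPM. In the rest of the base, Psmd2 measured 364 TPM and Psmd1, its partner scaffold, 139 TPM. Of the caps other than 19S, Psme3, which forms the nuclear PA28 gamma cap, measured 649 TPM and was the highest. Psme2 measured 17.3 TPM and its near-identical copy Psme2b 355 TPM. This gap depended on the length used: per kilobase of the longest coding transcript, they measured 17.6 and 56.7 CPM. The transcripts of Psme2 and Psme2b agree at 99.37% of 794 aligned bases, so how reads were divided between this pair is uncertain. Among the assembly chaperones, Psmg1 was the highest at 135 TPM and Psmd9 the lowest at 31.9 TPM. Psmc3ip measured 39.6 TPM and Psme3ip1 29.7 TPM.

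**Figure D2:**
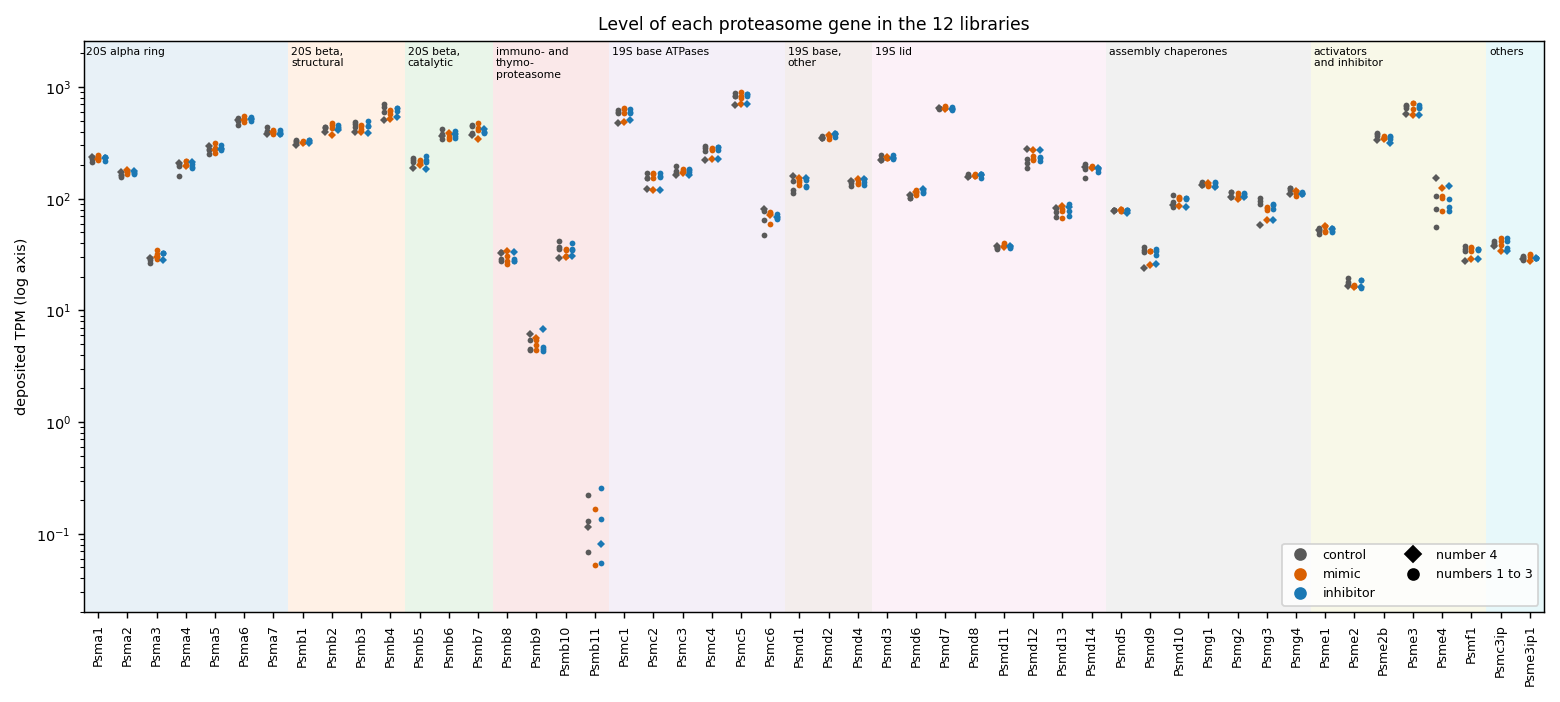
Deposited TPM (y axis, log scale) of the 50 proteasome genes (x axis, grouped by role) in 12 libraries; a value listed at 0 (Psmb11 in mimic 2 and mimic 4) is not drawn. Psma3 at 30.5 TPM lies far below the other 20S subunits, Psmd11 at 37.4 TPM is the lowest of the 19S cap, with Psmc6 next at 69.0 TPM, and Psmb11 lies under 0.3 TPM.

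The proportion of a subunit to the rest of its particle varied between libraries. Relative to the median of the 20S subunits in the same library, Psma4 had the largest SD over the 12 libraries, 0.17 on the log2 scale, and was lowest in control 2. In the 19S cap, Psmc6 (SD 0.21), Psmd12 (SD 0.20) and Psmd1 (SD 0.18) varied most, while Psmd7 had an SD of 0.05. The extremes of these 3 fell in the same pair of libraries: each was lowest in control 2 and highest in control 4. Psmc6 measured 47.6 TPM in control 2, 80.4 TPM in control 4 and 59.6 to 78.3 TPM in the other 10.

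The immunoproteasome subunits were low beside their constitutive counterparts. Psmb8 measured 26.2 to 34.2 TPM, Psmb9 4.35 to 6.85 TPM and Psmb10 29.2 to 41.6 TPM, and Psmb11 0 to 0.257 TPM with at most 12 counts in a library. As a share of the summed TPM, Psmb8 made up 12.4% ± 1.65 (SD, n = 12) of Psmb8 and Psmb5, Psmb9 1.36% ± 0.204 of Psmb9 and Psmb6, and Psmb10 7.78% ± 0.809 of Psmb10 and Psmb7. The treatment means of the Psmb8 share differed by less than their SD, at 12.6% ± 1.56 for controls, 12.3% ± 1.60 for mimic libraries and 12.1% ± 2.20 for inhibitor libraries (SD, n = 4). The Psmb10 share was 7.87% ± 0.708, 7.39% ± 0.620 and 8.08% ± 1.08 in the same order. Its mimic and inhibitor means differed by more than the SD of the mimic libraries and by less than that of the inhibitor libraries, and their ranges, 6.81% to 8.16% and 6.72% to 9.35%, overlapped. The shares depended on the unit and were higher per read count, at 43.7% for Psmb8. The Psmb8 share was 14.6% to 15.3% in the 3 libraries numbered 4 and 10.3% to 12.6% in the 9 others, with no overlap. The Psmb9 share overlapped, at 1.46% to 1.79% against 1.15% to 1.50%, as did that of Psmb10.

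**Figure D3:**
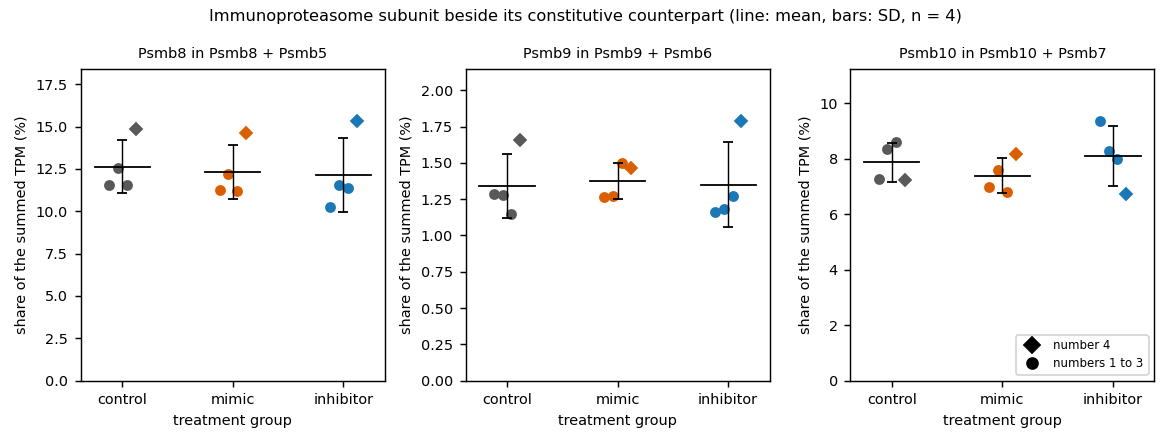
Share (y axis, % of the summed TPM) of each immunoproteasome subunit beside its constitutive counterpart by treatment group (x axis), with the mean and SD of 4 libraries. The library numbered 4 (diamond) is the highest of its group for Psmb8, at 14.6% to 15.3%, while the treatment means lie between 12.1% and 12.6%.

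More members were called by replicate number than by treatment. For libraries numbered 4 against those numbered 1 to 3, with treatment as a term, edgeR called 18 of 49 members, 5 higher and 13 lower. The same comparison called 41.5% of all genes, 20.4% higher and 21.1% lower, so the members' share lay near the background and is not a result about proteasome genes in particular. The count rested in part on single libraries, as did that of all genes. Without control 4 the fit called 10 members, beside 3690 of 13109 genes. Without inhibitor 4 it called 11 members, beside 3757 of 13143 genes. All 18 called members had the same sign within each of the 3 treatment groups, as did 30 of 49 members and 8958 of 13014 genes. The 18 were called on these same libraries, so their agreement in sign is no separate support for the calls. What the number stands for is not given in the sources used here, so its part in these differences cannot be told apart from that of any step the libraries shared. The 3 libraries numbered 4 had 62389350 to 68734250 counts, inside the range of the others.

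**Figure D4:**
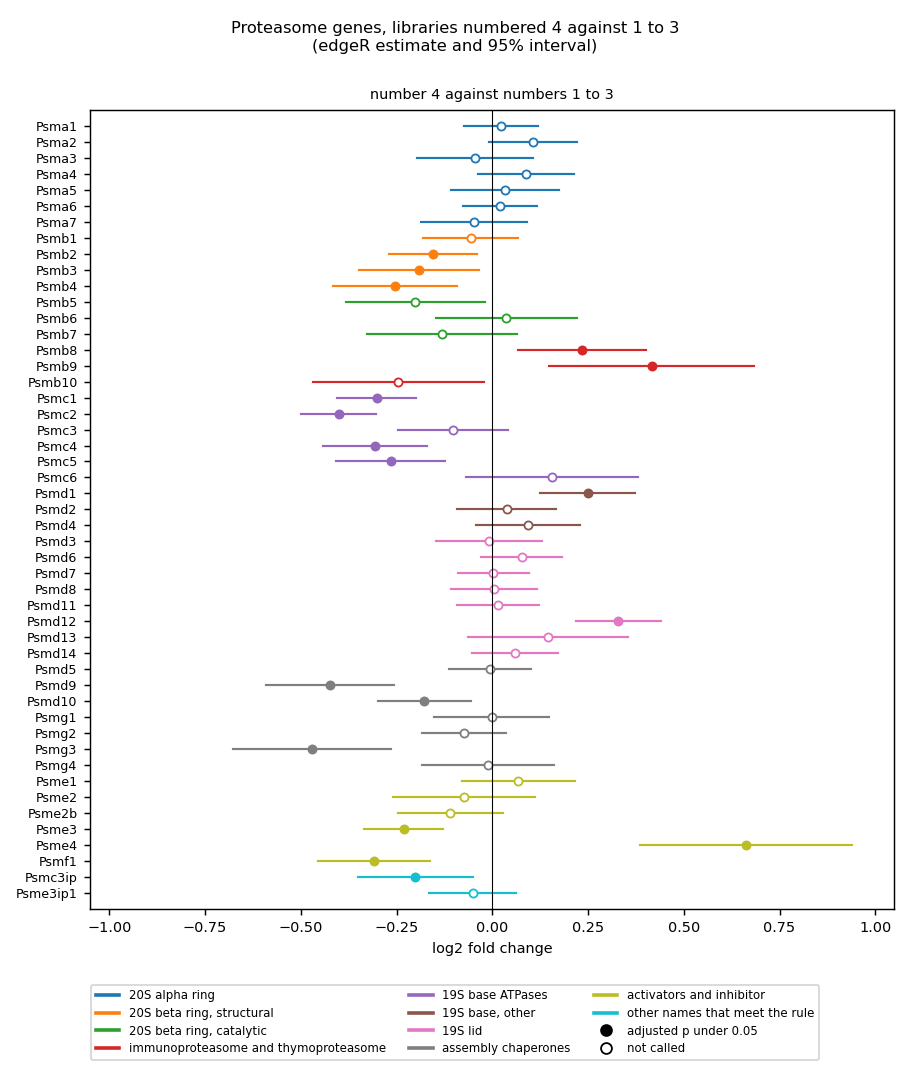
Log2 fold change (x axis) of the 49 tested proteasome genes (y axis, coloured by role) for 3 libraries numbered 4 against 9 numbered 1 to 3, with 95% intervals from edgeR and filled points at an adjusted p under 0.05. No alpha ring gene was called, 4 of 6 ATPases were lower, and Psme4 (0.66) and Psmg3 (-0.47) are the extremes.

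The calls for number 4 are given by role, beside the 41.5% of all genes called; differences between roles were not tested. None of the 7 alpha ring genes was called, and its summed level in number 4 libraries, 1808 to 1827 TPM, lay inside the 1715 to 1914 TPM of the others. Of the structural beta subunits, Psmb2 (-0.15), Psmb3 (-0.19) and Psmb4 (-0.25) were lower, and their summed level with Psmb1 was 1605 to 1655 TPM against 1791 to 1968 TPM. The catalytic subunits were not called: Psmb5 gave -0.20 (edgeR adjusted p = 0.0713), Psmb6 0.04 and Psmb7 -0.13. Of the immunoproteasome subunits, Psmb8 (0.23) and Psmb9 (0.42) were higher, and Psmb10 gave -0.24 (edgeR adjusted p = 0.073). These are log2 differences. Some of these calls were lost when 1 library was left out. Psmb4 lost its call without control 4 (adjusted p = 0.12) or inhibitor 4 (adjusted p = 0.0619). Psmb2 lost it without control 4, inhibitor 4, mimic 1, mimic 3 or mimic 4 (adjusted p from 0.0599 to 0.151), and Psmb8 without control 3, inhibitor 4, mimic 1, mimic 3 or mimic 4 (0.0555 to 0.186). Psmb3, at an adjusted p of 0.0499, lost it without control 3, control 4, inhibitor 3, inhibitor 4, mimic 2 or mimic 3 (0.0542 to 0.193) and with upper-quartile scaling. Psmb5 and Psmb10 gained a call without control 2 or inhibitor 2 (adjusted p from 0.0378 to 0.0414), and Psmb5 also without mimic 4 (adjusted p = 0.0435). Both were also called by limma on log2 TPM (adjusted p from 0.0109 to 0.0111 for Psmb5 and from 0.0228 to 0.0232 for Psmb10), and Psmb5 by edgeR without the treatment term (adjusted p = 0.0406).

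Psmb9, which replaces the caspase-like subunit, measured 7.52, 7.18 and 8.51 CPM in control 4, mimic 4 and inhibitor 4. In the 9 libraries numbered 1 to 3 it measured 5.15 to 7.06 CPM, with a median of 5.52, and the groups did not overlap. The log2 difference was 0.42 (SE 0.12, edgeR adjusted p = 0.0182), and it lost its call without control 4 (adjusted p = 0.0574) or inhibitor 4 (adjusted p = 0.147). Psmb9 shares 212 exonic bases with Tap1, an antigen peptide transporter on the opposite strand, and whether the authors counted by strand is not given in the sources used here.

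Of the 6 ATPases, Psmc1 (-0.30), Psmc2 (-0.40), Psmc4 (-0.31) and Psmc5 (-0.27) were lower in number 4, Psmc3 gave -0.10 and Psmc6 0.16 on the log2 scale. Psmc5 lost its call without control 4 (adjusted p = 0.0533). The ATPases summed to 1748 to 1796 TPM in number 4 libraries and to 2069 to 2245 TPM in the others. Psmc2 measured 135, 139 and 137 CPM in control 4, mimic 4 and inhibitor 4, and 168 to 193 CPM with a median of 182 in the 9 others. The groups were well apart, and each of the 18 alternative settings kept the call (SE 0.04, edgeR adjusted p = 5.72e-05). In the rest of the 19S cap, 2 genes were higher: Psmd1 (0.25), the base scaffold, and Psmd12 (0.33), a lid subunit. Psmd1 lost its call without control 4 (adjusted p = 0.0562). Psmd12 measured 227, 229 and 231 CPM in control 4, mimic 4 and inhibitor 4 against 164 to 196 CPM, with a median of 182, in the 9 others. Its edgeR adjusted p was 0.000447 (SE 0.05). The other 7 lid genes were not called, and their estimates ran from -0.01 to 0.15.

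Of the 7 assembly chaperones, Psmg3 (-0.47), Psmd9 (-0.42) and Psmd10 (-0.18) were lower in number 4, and Psmd5, Psmg1, Psmg2 and Psmg4 were not called. Psmd10 lost its call without control 4, inhibitor 4, mimic 3 or mimic 4 (adjusted p from 0.0509 to 0.138). Psmg3, which pairs with Psmg4 to start the alpha ring, measured 37.1, 42.6 and 41.6 CPM in control 4, mimic 4 and inhibitor 4. In the 9 others it measured 49.6 to 69.6 CPM, with a median of 55.8, so the groups did not overlap (SE 0.09, edgeR adjusted p = 0.0022). Its partner Psmg4 gave -0.01. Psmg3 shares 280 exonic bases, 9.68% of its own, with Gm26938, a protein-coding gene on the same strand that has no row of its own. Psmd9, a chaperone of the base, measured 36.1, 39.1 and 39.4 CPM against 46.5 to 59.3 CPM, with a median of 50.9 (SE 0.08, edgeR adjusted p = 0.00119). A long noncoding RNA gene on the opposite strand, Gm26745, overlaps 25.5% of its exonic bases.

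Of the caps and the inhibitor, Psme4 (0.66) was higher and Psme3 (-0.23) and Psmf1 (-0.31) were lower, while Psme1, Psme2 and Psme2b were not called. Psme4 encodes PA200, a nuclear cap linked to histone turnover and DNA repair. It measured 245, 203 and 210 CPM in control 4, mimic 4 and inhibitor 4. In the 9 others it measured 95.7 to 164 CPM, with a median of 141, and the 3 libraries numbered 4 were the highest of all 12. The log2 difference had an SE of 0.13 and an edgeR adjusted p of 0.00168. Its lowest value was that of control 2, and without that library the difference was 0.57. Psme3 measured 487, 488 and 487 CPM in the 3 libraries numbered 4, against 530 to 614 CPM. Psmc3ip (-0.20) was lower as well, and Psme3ip1 was not called. Psmc3ip shares 385 exonic bases, 21.2% of its own, with Mlx, a gene on the opposite strand at 45.8 TPM. Psmc3ip lost its call without control 4, mimic 1, mimic 3, mimic 4 or any of inhibitor 2, 3 and 4 (adjusted p from 0.054 to 0.18).

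**Figure D5:**
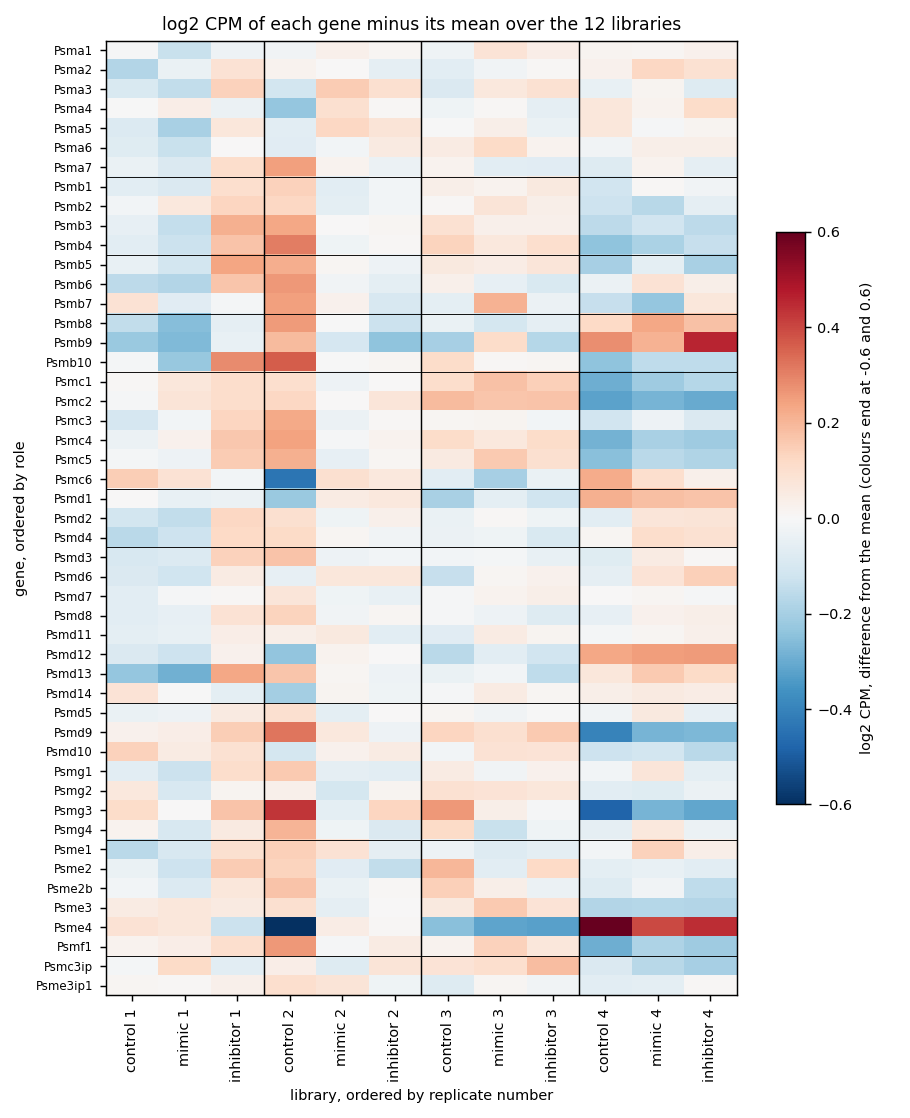
Log2 CPM of each tested proteasome gene (rows, by role) minus its mean over the 12 libraries (columns, by replicate number); colours end at -0.6 and 0.6. In the 3 columns numbered 4, Psmc1, Psmc2, Psmc4, Psmc5, Psmd9, Psmg3 and Psmf1 are below their means and Psme4, Psmd12 and Psmd1 above, and control 2 stands out for Psme4 and Psmc6.

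Counted by overlap alone, 15 of 49 members did not overlap between number 4 and the others, 4 higher and 11 lower, beside 36.9% of all genes, 17.9% higher and 19% lower. Libraries numbered 3 differed less. Against numbers 1 and 2, edgeR called 0 members and 0% of all genes, with 2.17% of genes at an unadjusted p under 0.05. Psmc1, Psmc2 and Psmg2, an assembly chaperone, were higher in number 3 without overlap, beside 1.6% of all genes (1.03% higher). Without control 2 this comparison called 569 genes, of which 1 was a member: Psme4 was lower in number 3 (log2 difference -0.34, edgeR adjusted p = 0.0038).

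Control 2 departed from the other libraries numbered 1 to 3 in many members. It lay outside their range in 63.3% of the members and in 55.1% of all genes. Most of these members were high: 24 lay above all 8 other libraries and 7 below, with a median departure of 0.13 on the log2 scale. Of 12936 genes, 3724 lay above and 3410 below, with a median of 0.0193. The members furthest above were the immunoproteasome subunit Psmb8 (47.8 CPM against 33.6 to 40.0) and the chaperone Psmg3 (69.6 CPM against 49.6 to 61.8). The lowest were Psme4 (95.7 CPM) and Psmc6 (68.8 CPM against 81.2 to 103), each below all 8, followed by Psma4, Psmd14, Psmd1, Psmd12 and Psmd10. Across members, its departure from the others correlated with GC content (Pearson 0.79 over 49 members, 0.43 over 12936 genes) and, in the opposite direction, with transcript length (-0.40 and -0.24). These points share a library and are given as a description. For number 4 the correlations of the log2 difference with length and GC were 0.30 and -0.25 over the members, beside 0.14 and -0.10 over 12936 genes. The part of length and GC in the differences was not tested.

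Promoters of proteasome genes are known for the antioxidant response element. The motif TGACNNNGC was searched on both strands from 250 bases before to 50 after the start of each gene (RefSeq, GRCm38.p6). It was found in 6 of 43 members with a promoter in the table (13.953%), beside 16.834% of 10235 tested genes. The 6 were Psmb5, Psmb6, Psmc6, Psmd12, Psmd9 and Psme4. In number 4, Psmd12 and Psme4 were higher, Psmd9 was lower and the other 3 were not called, so the 6 did not share a direction. The windows of the 3 that were called are printed with the match in capitals.
Psme4, chr11:30771525-30771824, plus strand: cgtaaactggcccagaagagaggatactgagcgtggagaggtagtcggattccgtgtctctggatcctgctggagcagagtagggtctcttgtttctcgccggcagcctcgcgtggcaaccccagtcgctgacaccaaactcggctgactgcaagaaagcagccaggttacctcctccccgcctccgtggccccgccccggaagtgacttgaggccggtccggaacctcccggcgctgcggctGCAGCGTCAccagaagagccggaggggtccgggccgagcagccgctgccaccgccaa
Psmd12, chr11:107479278-107479577, plus strand: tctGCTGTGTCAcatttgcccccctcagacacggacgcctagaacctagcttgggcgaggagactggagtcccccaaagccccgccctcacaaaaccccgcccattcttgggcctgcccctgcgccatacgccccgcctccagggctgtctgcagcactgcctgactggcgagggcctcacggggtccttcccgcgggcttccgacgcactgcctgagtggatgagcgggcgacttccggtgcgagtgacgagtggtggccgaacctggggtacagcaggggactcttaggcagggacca
Psmd9, chr5:123227940-123228239, plus strand: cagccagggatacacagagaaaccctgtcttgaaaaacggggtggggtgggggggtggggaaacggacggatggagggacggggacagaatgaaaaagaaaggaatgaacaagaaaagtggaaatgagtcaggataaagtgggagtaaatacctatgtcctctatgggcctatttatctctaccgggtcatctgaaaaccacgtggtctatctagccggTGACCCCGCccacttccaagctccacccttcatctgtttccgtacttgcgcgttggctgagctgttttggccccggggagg
In Psme4 and Psmd12 the match is the reverse complement, GCNNNGTCA, and in Psmd9 the motif reads along the gene. A match of these letters is a description and says nothing of binding.

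Genes that work with the proteasome were described beside it. Their counts for number 4 are to be read against the 20.4% of all genes called higher and 21.1% called lower, and nothing particular to a list is read from them. None of the 13 genes of the NFE2L1 pathway was called in a treatment comparison. In number 4, 5 of the 13 were higher and 7 lower, with a median of -0.16 beside a median of all genes at -7.05e-05: Nfe2l1 itself was lower (-0.16), as were Ddi2 (-0.28), the protease that cuts it, and Ngly1 (-0.65), which removes its sugars, while its relative Nfe2l2 (0.29), the small Maf protein gene Maff (0.91), the repressor Bach1 (0.42), the segregase gene Vcp (0.28) and Sel1l (0.21), of endoplasmic reticulum degradation, were higher. Of 19 proteasome partners, 18 were tested and 0 were called for a treatment. In number 4, 7 were higher and 2 lower, with a median of 0.14. Uchl5, a deubiquitinase of the 19S cap, was higher by 0.83 and Ecpas, a proteasome-binding scaffold, by 0.47, while Zfand2a, a stress-induced 19S binder, had a log2 difference of -0.89. Of 8 genes of ubiquitin supply, 3 were higher and 0 lower, among them Uba1 (0.36) and Uba6 (0.52), which activate ubiquitin. Ubb, a polyubiquitin gene, gave -0.16 (edgeR adjusted p = 0.0825).

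Of 12 antigen processing genes, 9 were tested and 0 were called for a treatment. In number 4, 5 were higher and 0 lower, beside 20.4% and 21.1% of all genes: the MHC class I genes H2-K1 (0.50) and H2-D1 (0.22), the transporter genes Tap1 (0.40) and Tap2 (0.18) and the peptide loader Tapbp (0.50). Irf1, an interferon-responsive transcription factor, gave -0.00475 and was not called. Of the 11 tested Neuro-2a markers, 1 was higher (Tubb3, 0.44) and 6 were lower in number 4, among them Gata3 (-0.74) and Phox2a (-0.49). The summed immune and endothelial markers were 2.77 to 3.04 TPM in number 4 and 1.79 to 2.82 TPM in the others, and those of fibroblasts 1.07 to 1.73 TPM against 0.807 to 1.27 TPM. Of the 2 immune and endothelial and 3 fibroblast markers tested, 1 of each was called higher in number 4: the endothelial Pecam1 by 0.53 (8.44 against 5.89 CPM, edgeR adjusted p = 0.0114) and the mesenchymal Pdgfra by 0.87 (2.49 against 1.35 CPM, edgeR adjusted p = 0.0211). None of 3 glia markers was called. Of the markers not tested, Ptprc was at 0 in 11 of 12 libraries, Cdh5 in 9 and Csf1r in 7. The part of other cells in these differences was not tested.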

How the data were processed

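RNA sequencing gave 12 libraries, 4 in each of 3 groups taken from the labels. The authors deposited whole-number read counts and TPM values per gene. The build GRCm39 and the tools STAR, fastp, featureCounts, edgeR and StringTie are named per the submitters' processing notes, which give no versions here; strand setting and annotation were not stated. The counts were scaled with TMM, filtered with filterByExpr and tested with edgeR 4.0.16 in R 4.3.3 on all 12 libraries, by treatment group alone or by replicate number with group as a term. P-values were adjusted over 13014 genes, and the steps were tested on simulated data. Alternatives were DESeq2 1.42.0, limma 3.58.1 on log2(TPM + 1) and log2(TPM + 0.1), other scalings, no filter, a replicate block and leaving out each library. The members, lists and tests were chosen with earlier results of these data known. The text names the 3 members of smallest p per treatment comparison, the 3 called extremes per number comparison, the highest and lowest of each role and the catalytic and immunoproteasome subunits; the others were named after their values were seen. GRCm38 sequence (GENCODE M21, RefSeq) differs from the authors' build and was matched by gene identifier or symbol. Some listed genes are not reported here.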

Additional observations from a re-analysis of the deposited data

Results flagged for a closer look

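Within groups of 4 libraries, a single library stood far from the other 3 in 2 of 93 cases looked at. Each case was a named gene, or the share of an immunoproteasome subunit, within 1 treatment group. Chance flags about 1 in 20 of independent cases. These cases share libraries, and many of the genes were chosen by their values, so that rate is only a rough guide. Psmc6, an ATPase of the 19S base, measured 81.2 CPM in mimic 3 and at least 98.8 CPM in the other mimic libraries, a gap of 0.936 of the group's range, above Dixon's 95% critical value. Psmd9, a chaperone of the base, measured 39.1 CPM in mimic 4 and 48.9 to 50.9 CPM in the other mimic libraries, a gap of 0.835 of the range. It was also low in control 4 and inhibitor 4 and was called lower in number 4, so this flag is not separate from that call.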

How the results depend on the processing

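No member was called for a treatment in any of 60 alternative fits over the 3 comparisons, and the lowest adjusted p of a member was 0.865 (Psmd1, mimic against control without control 4). Over all genes, DESeq2 called 2 genes for mimic against control, 4 for mimic against inhibitor and 2 for number 3, where edgeR called 0. Leaving out 1 library gave 0 to 1 genes for mimic against control and for mimic against inhibitor, and 0 to 569 genes and 0 to 1 members for number 3. For number 4, leaving out 1 library gave 10 to 21 members and 3690 to 6589 genes, and the settings that kept all libraries gave 17 to 21 members. Psmc1, Psmc2, Psmc4, Psmd9, Psmd12, Psme3, Psme4, Psmf1 and Psmg3 kept their call in each of the 18 alternatives for number 4. Psmb3 and Psmc3ip lost theirs in 7 and Psmb2 and Psmb8 in 5. The cause was not tested.

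Each library's log2 CPM was first taken as a deviation from the mean of its treatment group. Between same-numbered libraries of different groups, these deviations correlated across genes at -0.07 to 0.53 (median 0.13). Of 12 pairs, 7 exceeded 0.1, those of number 4 at 0.44 to 0.53. Because 5 pairs did not exceed it and the labels name no shared source, the number was not taken as a pairing, although 9 of 12 libraries correlated best with their own number, a hint from the data that it marks something shared. With the number as a replicate block, 0 members and 0 genes were called in each treatment comparison, and 191, 161 and 139 genes had an unadjusted p under 0.05. The block narrowed some intervals: for mimic against control the SE went from 0.25 to 0.14 for Psme4 and from 0.13 to 0.05 for Psmc2. Numbers 1 to 3 alone, chosen after seeing the data, also gave 0 calls in each.

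Levels between genes depend on length. The length behind the deposited TPM followed the union of exons (r = 0.86 over 10958 genes) more than the longest coding transcript (r = 0.69), and for members it was 0.511 to 4.85 times the latter. Per kilobase of that transcript, chosen after seeing the data, Psma3 and Psmd11 were again the lowest, Psma7 was the highest 20S and alpha subunit in place of Psmb4 and Psma6, Psmb2 was the lowest structural beta subunit in place of Psmb1, Psmb6 (232 CPM per kilobase) lay above Psmb7 (227), Psmd3 (160.9) lay beside Psmd7 (159.9) in the lid, and the 19S range was 7.54-fold in place of 21.8-fold. The shares of Psmb8, Psmb9 and Psmb10 were 43.7%, 3.28% and 10.5% from read counts and 30.0%, 1.96% and 9.43% per kilobase. Near copies without a row of their own exist for 12 members, among them Psmb3 and Psmb5.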
